A study of Mus musculus with 3 samples.

Results

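The genes described here are 48 neuropeptide genes, 17 that encode peptide precursors (ligands) and 31 that encode neuropeptide receptors, chosen by symbol from the 49585 genes listed for each library. Each symbol belonged to 1 row of the tables. The tissue was midbrain of C57BL/6 mice, taken at postnatal day 3 and frozen, and its total RNA gave 2 libraries labelled FGR and 1 labelled wild type (WT). The labels do not spell out FGR, give no treatment or age apart from that day, and leave unsaid how many animals or litters lie behind the FGR pair and whether tissue was pooled. Counts summed to 58444481 and 46240262 in FGR replicates 1 and 2, against 52874311 in WT.

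Neuropeptides are cut from longer precursor proteins inside dense-core vesicles and are released alongside fast transmitters. Most of them act on G protein-coupled receptors, often on cells other than those that made the peptide, and ligand and receptor genes are described apart. In the midbrain, enkephalins, dynorphins and tachykinins are known from the periaqueductal grey, and neurotensin receptors from dopamine neurons. Somatostatin and neuropeptide Y are found in many inhibitory neurons.

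The comparison of FGR with WT asked how the levels of these genes differed between the midbrains. It used edgeR's quasi-likelihood test over 25561 genes, with adjusted p-values over all of them, and its spread came from the FGR pair (1 residual degree of freedom), so WT was assumed to vary like FGR. Levels are given as CPM, a count divided by the TMM-scaled library total, as FGR replicate 1 and replicate 2, then WT. Levels of different genes are compared only as the authors' RPKM, which divides by gene length. In bulk tissue, fewer cells of a type and less RNA per cell cannot be told apart.

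Of the 17 ligand genes, 15 had enough counts to be tested. Sst and Rln3 rose in FGR and Nts fell, so 3 of 15 were called, 2 higher and 1 lower. Of all tested genes 4.25% were called, 1.66% higher and 2.59% lower. All 31 receptor genes were tested. Oprd1, Ntsr1 and Npy1r fell and 0 rose, which is 9.68% called. The remaining members did not pass the test. The median log2 fold change was -0.22 over the tested ligand genes and -0.37 over the receptor genes, against 0.01 over all genes tested. Both FGR libraries lay below WT for 10 of 15 ligand genes and 22 of 31 receptor genes, where 38.2% of all tested genes did. They lay above WT for 4 ligand genes and 4 receptor genes, where 38.5% of all genes did.

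**Figure D1:**
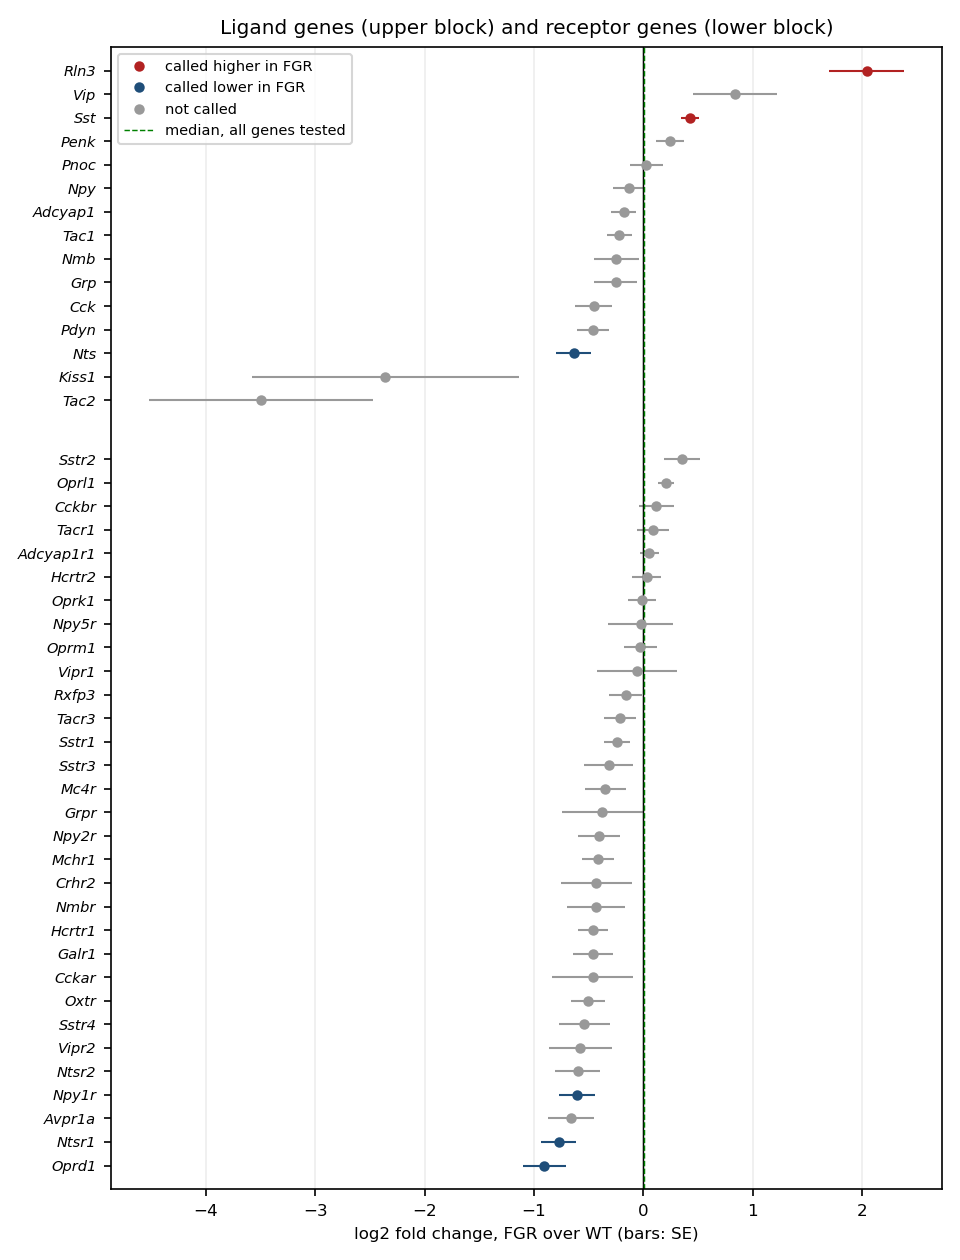
Fitted log2 fold change of FGR over WT for the 46 tested members, with bars of 1 SE, ligand genes in the upper block and receptor genes in the lower. Among ligands Rln3 lies farthest to the right at 2.04 and Tac2 farthest to the left at -3.50, while the receptor genes run from 0.35 (Sstr2) to -0.91 (Oprd1), most of them left of 0.

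The summed level of the 17 ligand genes was 156.6 and 147.7 CPM in FGR and 153.2 CPM in WT. The 31 receptor genes summed to 628.3 and 611.1 CPM in FGR and 615.9 CPM in WT. Of the receptor sum most came from Adcyap1r1 and Oprl1, which lay slightly above WT in both FGR libraries, so the sum hides the lower values of the many scarcer receptors.

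Among ligands, Sst, which encodes somatostatin, an inhibitory peptide of many GABA neurons, had the highest level per length in every library. Its RPKM was 83.2 and 76.3 in FGR and 61.0 in WT. In counts it stood at 2913 and 2113 in FGR and 1932 in WT, which scale to 50.2 and 46.2 CPM in FGR and 35.9 CPM in WT. Both FGR libraries were therefore above WT, by more than they differed from each other. The log2 fold change was 0.43 ± 0.08 (SE; edgeR adjusted p = 0.00831).

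Rln3, which encodes relaxin-3, a peptide made chiefly in the pontine nucleus incertus, showed the largest change of any called member. It had 104 and 79 counts in FGR and 23 counts in WT, or 1.79 and 1.73 CPM in FGR and 0.427 CPM in WT. The FGR libraries nearly coincided and lay 4.11-fold above WT in the fit, and log2 of the fold was 2.04 ± 0.34 (SE; edgeR adjusted p = 0.00432). A list of hindbrain genes moved with it. Of its 18 genes 9 were tested, 5 rose and 0 fell, and the list summed to 45.0 and 38.2 CPM in FGR and 4.57 CPM in WT. The genes Hoxb2, Hoxa3, Hoxd3, Hoxa4, Hoxb4, Hoxd4, Hoxb5 and Hoxc5 of this list were at 0 counts in WT, and Hoxc5 also in FGR. In FGR, Hoxb2 had 12 and 16 counts, Hoxa3 5 and 3, and Hoxd3 4 and 7. Hoxa4, Hoxb4, Hoxd4 and Hoxb5 had at most 2 counts in either FGR library, too few to set apart from 0. Hoxc4 had 2 and 4 counts in FGR and 3 in WT, and Hoxa5 had 2 in every library. The most abundant gene of the list was the noradrenaline transporter gene Slc6a2, at 32.7 and 25.7 CPM in FGR and 2.55 CPM in WT. It made up most of the list sum. The part of hindbrain tissue in the Rln3 value was not tested.

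Nts, the neurotensin precursor gene, fell. Its level was 8.17 and 6.52 CPM in FGR (474 and 298 counts) and 11.5 CPM in WT (617 counts), with both FGR libraries below WT. The log2 fold change was -0.64 ± 0.16 (SE; edgeR adjusted p = 0.0363). Neurotensin acts on dopamine neurons and on circuits for feeding and pain, and its neurons are frequent in the hypothalamus as well as the midbrain.

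The 3 ligand genes that passed the test differ in the DNA before their starts, and the 250 bases upstream of each annotated start are shown because they were the ligands that changed. Sequences are from RefSeq on GRCm38.p6, written 5′ to 3′ on the strand of the gene, which is the minus strand for each, and capitals mark matches to the motifs searched. The windows lie at chr16:23890845-23891094 for Sst, chr8:84044980-84045229 for Rln3 and chr10:102490419-102490668 for Nts.
Sst: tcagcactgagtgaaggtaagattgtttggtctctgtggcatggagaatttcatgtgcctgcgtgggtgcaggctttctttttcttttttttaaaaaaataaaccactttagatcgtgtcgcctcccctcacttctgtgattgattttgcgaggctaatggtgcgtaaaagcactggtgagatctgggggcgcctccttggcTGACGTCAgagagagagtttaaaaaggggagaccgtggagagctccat
Rln3: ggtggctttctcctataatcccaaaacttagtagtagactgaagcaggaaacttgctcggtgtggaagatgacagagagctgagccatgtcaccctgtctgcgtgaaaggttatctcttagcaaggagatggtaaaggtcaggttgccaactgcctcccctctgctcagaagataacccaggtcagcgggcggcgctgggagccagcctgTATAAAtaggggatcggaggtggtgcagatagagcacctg
Nts: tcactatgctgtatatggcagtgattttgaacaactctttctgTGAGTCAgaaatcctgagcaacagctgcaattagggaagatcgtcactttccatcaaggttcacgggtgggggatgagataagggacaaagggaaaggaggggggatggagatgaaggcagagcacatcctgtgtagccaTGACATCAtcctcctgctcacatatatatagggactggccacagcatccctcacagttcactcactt

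Motifs were searched on both strands in the 250-base windows of 40 of the 48 members (49 windows) and of all genes in the table (32851 windows). The cyclic AMP response element TGACGTCA, the motif through which the transcription factor CREB is known to act on Sst, stood at positions -48 to -41 of Sst. It was present in 1.55% of all windows and in 3 member windows, those of Sst, Sstr2 and Ucn. With 1 base left free (TGACNTCA, which includes the first motif), 7.49% of all windows matched, and Nts held a copy at -67 to -60. Nts also held the AP-1 motif TGANTCA at -207 to -201, found in 6.75% of all windows and in 3 member windows, those of Nts, Npy1r and the untested Nmu. Rln3 held the TATA box TATAAA at -40 to -35, found in 12.4% of all windows and in 7 member windows. The other members with it, Adcyap1, Avpr1a, Crhr2, Oprl1, Tacr3 and Vip, were not called. Of the called receptor genes, Npy1r held the AP-1 motif at -231 to -225 and Ntsr1 held none of the motifs. Among genes with the full element, Sst was called higher, Sstr2 was not called (edgeR adjusted p = 0.274) and Ucn had no reads. Nts and Hcrtr2 matched only with 1 base free, and Nts fell while Hcrtr2 was not called. A link between motifs and levels was not tested. These matches describe letters in a window and not binding.

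**Figure D2:**
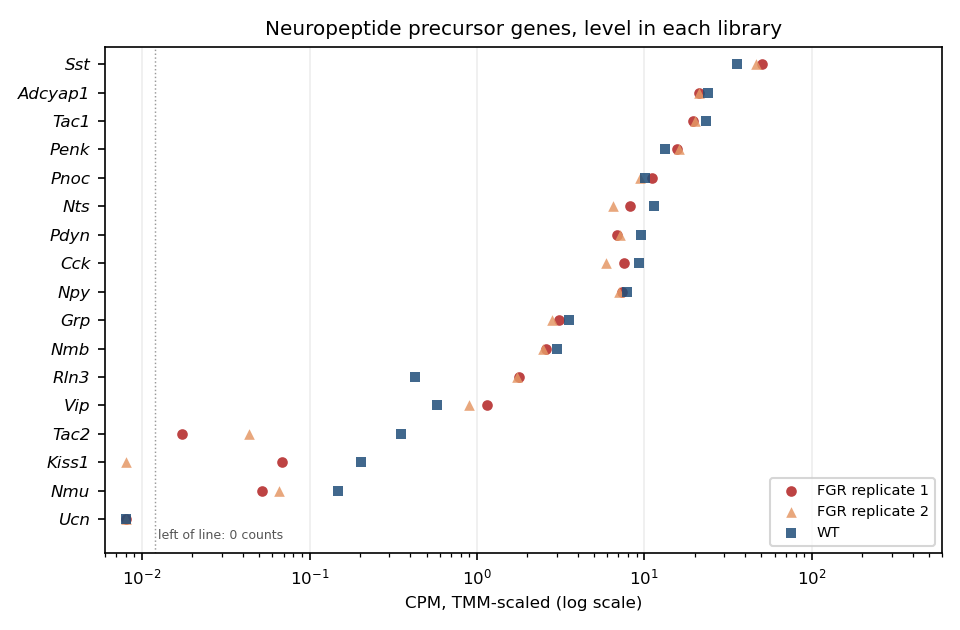
Level of the 17 ligand genes in each library, in TMM-scaled CPM on a log axis, with libraries at 0 counts drawn left of the dotted line. Sst, Penk, Vip and Rln3 have both FGR points right of WT, and Ucn was at 0 in every library.

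The opioid precursor genes did not move as a family. Penk, which encodes enkephalins, was at 15.6 and 16.0 CPM in FGR and 13.4 CPM in WT (edgeR adjusted p = 0.349). Pdyn, the dynorphin precursor gene, was at 6.83 and 7.11 CPM in FGR and 9.57 CPM in WT (edgeR adjusted p = 0.0952). Pnoc, which encodes nociceptin, was at 11.2 and 9.36 CPM in FGR with WT between them at 10.1 CPM. Thus the FGR libraries lay above WT for Penk, below it for Pdyn and on either side for Pnoc, and the 3 genes summed to 33.6 and 32.5 CPM in FGR and 33.03 CPM in WT. Exons of Penk share 14.3% of their bases with an antisense transcript in GENCODE M21, and the sources do not say if reads were assigned by strand. The overlap was 6.64% for Nmu and 1.19% for Oprm1, also antisense.

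Of the tachykinin genes, Tac1, which encodes substance P and neurokinin A, was at 19.6 and 20.2 CPM in FGR and 23.2 CPM in WT (edgeR adjusted p = 0.323). Tac2, the neurokinin B precursor gene, had 1 and 2 counts in FGR and 19 counts in WT, a ratio of 0.0819 with an exact 95% binomial interval of 0.0155 to 0.278 for counting error alone (edgeR adjusted p = 0.0719). Kiss1, which encodes kisspeptin, the peptide that drives gonadotropin release, had 4 and 0 counts in FGR and 11 counts in WT, a ratio of 0.189 (interval 0.0438 to 0.637; edgeR adjusted p = 0.330). Nmu, which encodes neuromedin U, had 3 counts in each FGR library and 8 in WT and was not tested (ratio 0.389, interval 0.111 to 1.28). Each of these scarce ligand genes thus stood lower in both FGR libraries, and none passed the test.

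A list of transcription factor genes of the hypothalamus and ventral forebrain was lower in FGR. Of 20 genes 18 were tested, 13 fell and 0 rose, and the list summed to 13.2 and 13.5 CPM in FGR and 48.9 CPM in WT. Nkx2-4, Six6, Fezf1, Dlx6 and Lhx8 of this list were at 0 counts in both FGR libraries. In WT they had 262, 88, 137, 48 and 1 counts, and Lhx8 was not tested. Both FGR libraries were below WT for 16 of the tested genes and above it for 2, Six3 and Otp, which were not called. The part of this tissue in the ligand values was not tested.

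Cck, which encodes cholecystokinin, a peptide found in some dopamine neurons and in many forebrain neurons, was at 7.57 and 5.86 CPM in FGR and 9.23 CPM in WT (edgeR adjusted p = 0.154). Vip, which encodes vasoactive intestinal peptide, had 67 and 41 counts in FGR and 31 in WT, or 1.16 and 0.897 CPM in FGR and 0.576 CPM in WT. It was the only member at a mean CPM of at least 0.5 that differed at least 1.5-fold in both FGR libraries without passing the test (log2 fold change 0.84 ± 0.38, SE; edgeR adjusted p = 0.260). Adcyap1, which encodes the related peptide PACAP, was at 21.3 CPM in either FGR library and 24.2 CPM in WT (edgeR adjusted p = 0.423). Both FGR libraries were above WT for Vip and below it for Adcyap1.

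Npy, the neuropeptide Y gene, ranked second among ligands per length, with an RPKM of 13.0 and 12.3 in FGR and 14.2 in WT. Its CPM was 7.40 and 7.04 in FGR and 7.91 in WT (edgeR adjusted p = 0.703), with both FGR libraries below WT. The bombesin-like genes Grp and Nmb encode gastrin-releasing peptide and neuromedin B. Grp was at 3.09 and 2.82 CPM in FGR and 3.53 CPM in WT, and Nmb at 2.57 and 2.49 CPM in FGR and 3.01 CPM in WT (edgeR adjusted p = 0.549 and 0.585). Nmb shares 20.6% of its exon bases with Sec11a on the same strand, so some of its reads may belong to that gene. Ucn, which encodes urocortin, a peptide of the Edinger-Westphal region of the midbrain, had 0 counts in every library. A count of 0 allows up to 0.0289 CPM over the FGR libraries and 0.0557 CPM in WT, for counting error only.

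Receptor genes were mostly scarcer per length than ligand genes. Their median RPKM was 1.39 and 1.25 in the FGR libraries and 1.68 in WT, where that of the ligand genes was 3.21 and 3.11 in FGR and 3.86 in WT. Adcyap1r1, which encodes the PACAP receptor of neurons and glia, ranked first at an RPKM of 46.1 and 44.9 in FGR and 45.02 in WT. Oprl1, the nociceptin receptor gene, ranked second at 43.2 and 41.2 in FGR and 37.5 in WT. Sstr1 followed at 7.84 and 7.75 in FGR and 9.47 in WT, so these first 2 stood well apart from the other 29 receptors in every library.

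**Figure D3:**
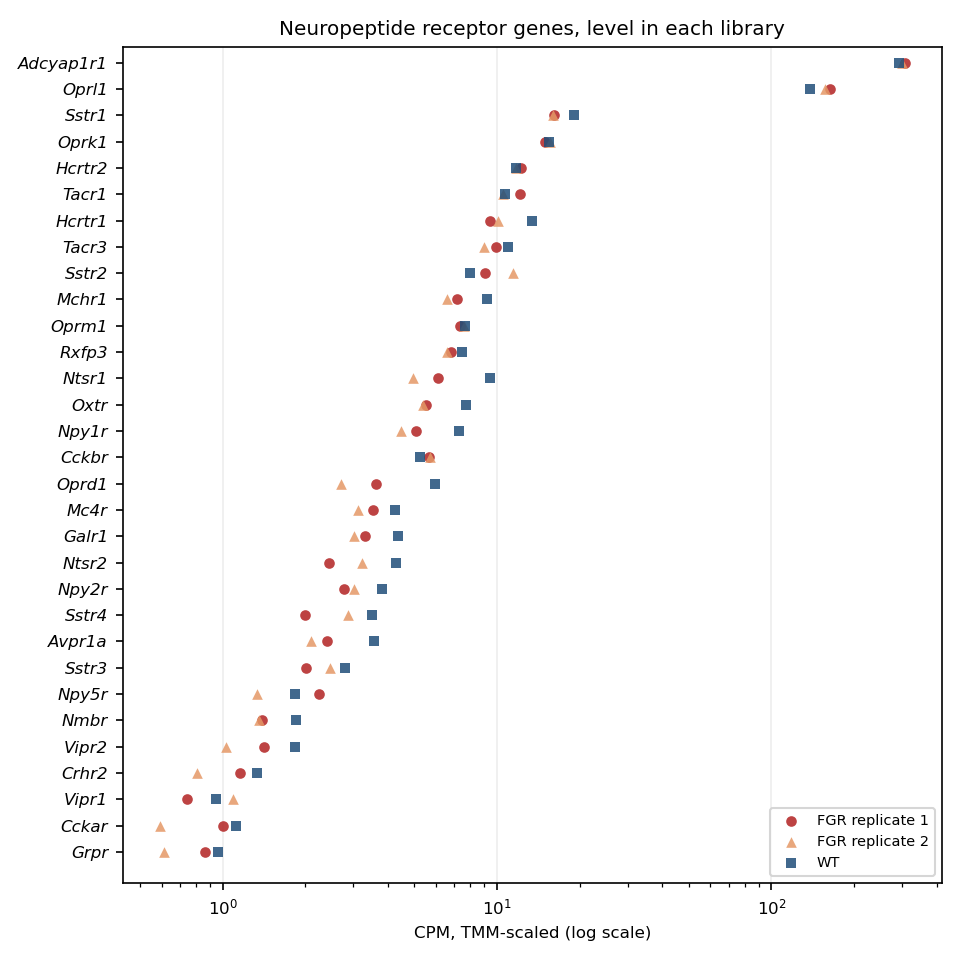
Level of the 31 receptor genes in each library, in TMM-scaled CPM on a log axis. The FGR points lie left of WT for 22 genes, with the widest called gaps at Oprd1, Ntsr1 and Npy1r, while Adcyap1r1 and Oprl1 stand apart at the top with FGR slightly right of WT.

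The delta opioid receptor gene Oprd1, whose product binds enkephalins, had the largest fall among the receptors. It had 210 and 123 counts in FGR and 320 in WT, or 3.62 and 2.69 CPM in FGR and 5.94 CPM in WT. Both FGR libraries were below WT, and the log2 fold change was -0.91 ± 0.19 (SE; edgeR adjusted p = 0.0175). The mu receptor gene Oprm1, the target of morphine and beta-endorphin, was at 7.33 and 7.61 CPM in FGR and 7.62 CPM in WT. The kappa receptor gene Oprk1, the dynorphin receptor, was at 15.0 and 15.6 CPM in FGR and 15.4 CPM in WT. Neither passed the test (edgeR adjusted p = 0.947 and 0.981), and for Oprk1 the FGR libraries lay on either side of WT. Oprl1 was at 163.5 and 156.3 CPM in FGR and 138.3 CPM in WT (edgeR adjusted p = 0.132). Among the 4 opioid receptor genes the fall thus passed the test for Oprd1 alone, though differences between the receptors were not tested.

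The 250 bases before the start of Oprd1 are shown because it was the receptor gene that changed most. They lie at chr4:132144487-132144736 on the minus strand (RefSeq, GRCm38.p6), and capitals mark the E-box CACGTG at positions -86 to -81. The motif was found in 6.02% of all windows and in 10 of the 49 member windows. Oprd1 was the only called gene among those members.
Oprd1: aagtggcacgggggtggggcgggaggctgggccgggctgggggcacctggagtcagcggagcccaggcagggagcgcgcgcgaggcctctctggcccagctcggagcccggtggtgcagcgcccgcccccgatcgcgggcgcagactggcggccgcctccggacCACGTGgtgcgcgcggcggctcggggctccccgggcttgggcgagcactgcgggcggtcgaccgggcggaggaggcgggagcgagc

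Both neurotensin receptor genes had their FGR libraries below WT, and 1 of them passed the test. Ntsr1, the high-affinity receptor gene expressed by dopamine neurons, fell to 6.09 and 4.94 CPM in FGR (353 and 226 counts), against 9.46 CPM in WT (509 counts). Its log2 fold change was -0.77 ± 0.16 (SE; edgeR adjusted p = 0.0144). Ntsr2, whose product is found mainly on astrocytes, was at 2.45 and 3.22 CPM in FGR and 4.27 CPM in WT (edgeR adjusted p = 0.128). The neurotensin system was the only ligand and receptor pair here with a called member on each side, and each had both FGR libraries below WT. A list of 7 dopamine neuron genes, chosen after values were seen, was lower in part. Slc6a3, Nr4a2 and Aldh1a1 fell and 0 rose, which is 42.9% called, against 4.25% of all tested genes. Because of how the list was chosen, these shares cannot be weighed against each other. Both FGR libraries were below WT for 5 of the 7, above it for 1 and on either side for 1. The list summed to 130.4 and 131.3 CPM in FGR and 168.7 CPM in WT. The dopamine transporter gene Slc6a3 was at 17.8 and 22.3 CPM in FGR and 47.5 CPM in WT, and no gene of the list was at 0. The part of dopamine neurons in the Ntsr1 value was not tested.

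Of the neuropeptide Y receptor genes, Npy1r fell to 5.07 and 4.46 CPM in FGR (294 and 204 counts), against 7.28 CPM in WT (392 counts). The log2 fold change was -0.61 ± 0.16 (SE; edgeR adjusted p = 0.0492), close to the threshold of 0.05. Npy2r, a receptor often found on nerve endings, was at 2.78 and 3.02 CPM in FGR and 3.83 CPM in WT (edgeR adjusted p = 0.289). Npy5r had its FGR libraries on either side of WT, at 2.24 and 1.33 CPM in FGR and 1.84 CPM in WT. Npy5r and Cckar were the 2 of 44 members with at least 30 counts whose FGR libraries differed by over 1.5-fold.

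None of the somatostatin receptor genes was called. Sstr2, which couples to inhibition of firing and release, was at 9.03 and 11.5 CPM in FGR and 8.01 CPM in WT (edgeR adjusted p = 0.274). Sstr1 was at 16.2 and 16.0 CPM in FGR and 19.04 CPM in WT, and Sstr3, a receptor of neuronal cilia, at 2.02 and 2.47 CPM in FGR and 2.79 CPM in WT. Sstr4 was at 2.0 and 2.87 CPM in FGR and 3.51 CPM in WT. The FGR libraries were thus above WT for Sstr2 and below it for the other 3 genes (edgeR adjusted p = 0.229 to 0.506 over the 4).

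The receptor genes for orexin, oxytocin, vasopressin, melanin-concentrating hormone, galanin and melanocortins did not pass the test. Hcrtr1, the orexin receptor gene of the locus coeruleus and other arousal nuclei, was at 9.45 and 10.1 CPM in FGR and 13.4 CPM in WT (edgeR adjusted p = 0.0769). Oxtr, the oxytocin receptor gene, was at 5.50 and 5.38 CPM in FGR and 7.73 CPM in WT (edgeR adjusted p = 0.0793). The vasopressin receptor gene Avpr1a was at 2.40 and 2.10 CPM in FGR and 3.57 CPM in WT (edgeR adjusted p = 0.0920). These were the receptor genes nearest to the threshold outside it. Mchr1, the receptor gene for melanin-concentrating hormone, was at 7.17 and 6.58 CPM in FGR and 9.20 CPM in WT, and the galanin receptor gene Galr1 at 3.29 and 3.02 CPM in FGR and 4.35 CPM in WT. Mc4r, a melanocortin receptor gene that restrains feeding, was at 3.53 and 3.11 CPM in FGR and 4.24 CPM in WT. The second orexin receptor gene, Hcrtr2, was at 12.2 and 11.7 CPM in FGR and 11.7 CPM in WT, within the gap between the FGR libraries.

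The remaining receptor genes were not called, with edgeR adjusted p-values from 0.309 (Vipr2) to 0.954 (Vipr1). The substance P receptor gene Tacr1 was at 12.1 and 10.5 CPM in FGR and 10.7 CPM in WT. The neurokinin B receptor gene Tacr3 was at 9.95 and 8.97 CPM in FGR and 11.0 CPM in WT. The fitted log2 fold change was 0.12 for the cholecystokinin receptor gene Cckbr and -0.46 for Cckar. It was 0.05 for Adcyap1r1, -0.06 for Vipr1 and -0.58 for Vipr2, the receptor genes of the VIP and PACAP system. The relaxin-3 receptor gene Rxfp3 was at 6.78 and 6.56 CPM in FGR and 7.47 CPM in WT (log2 fold change -0.16 ± 0.15, SE), while its ligand gene had risen. Crhr2, a receptor gene for urocortins, and the bombesin receptor genes Grpr and Nmbr were at or below 2 CPM in every library, with log2 fold changes of -0.43, -0.37 and -0.43. Exons of Nmbr share 15.6% of their bases with an antisense gene.

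Genes that make and release peptides were lower in part. Of 22 genes for peptide processing and dense-core vesicles, all tested, 6 fell and 0 rose, and the median log2 fold change was -0.13. That is 27.3% called, against 4.25% of all tested genes. Baiap3, which acts in dense-core vesicle exocytosis and recycling, was at 50.9 and 52.3 CPM in FGR and 105.8 CPM in WT. Vgf, a granin-like precursor, was at 57.05 and 57.4 CPM in FGR and 86.6 CPM in WT. The other falls were those of Pcsk1n, which inhibits a prohormone convertase, the chromogranin gene Chga, and Ptprn and Ptprn2, membrane proteins of dense-core vesicles. The most abundant per length were Cpe, the carboxypeptidase that trims peptides, at an RPKM of 286.4 and 280.7 in FGR and 312.3 in WT, and the granin gene Scg2 at 115.7 and 109.1 in FGR and 128.4 in WT, and neither passed the test. A list of 12 pan-neuronal genes had 0 called by edgeR, and summed to 6812 and 6560 CPM in FGR and 6797 CPM in WT. Their median log2 fold change was -0.09, with both FGR libraries below WT for 8 genes and above it for 2. In edgeR 6 of the 12 had an unadjusted p under 0.05, where 18.3% of all tested genes did.

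Other precursor genes, many of them known from the hypothalamus, were counted apart from the ligands above. Of 33 genes 28 were tested, 7 fell and 0 rose, and the median log2 fold change was -0.61. Called genes made up 25.0% of those tested, against 4.25% of all tested genes. Both FGR libraries were below WT for 20 of the tested genes and above it for 8. Pmch, which encodes melanin-concentrating hormone, was at 0.431 and 0.416 CPM in FGR and 11.5 CPM in WT, and Avp, which encodes vasopressin, at 0.138 and 0.153 CPM in FGR and 2.86 CPM in WT. Trh, the thyrotropin-releasing hormone gene, was at 1.45 and 1.14 CPM in FGR and 3.73 CPM in WT. Hcrt, which encodes orexin, had 6 and 2 counts in FGR and 40 in WT, and the oxytocin gene Oxt had 0 counts in both FGR libraries and 26 in WT, at least 16.7-fold lower against a floor of 3 counts over the FGR pair. Apln, the apelin gene, was at 3.62 and 2.76 CPM in FGR and 7.004 CPM in WT. Pmch and Cartpt had the highest mean RPKM of the list over the 3 libraries, but Pmch exceeded Cartpt in WT only. The RPKM of Pmch was 0.571 and 0.549 in FGR and 15.6 in WT, and that of Cartpt 4.58 and 4.43 in FGR and 6.73 in WT. Cartpt was at 4.03 and 3.92 CPM in FGR and 5.78 CPM in WT (edgeR adjusted p = 0.0893).

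**Figure D4:**
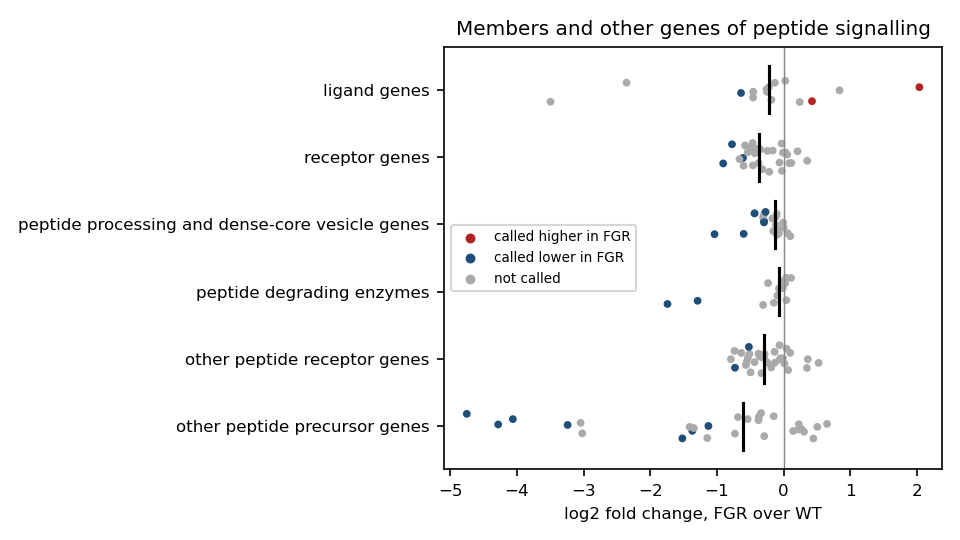
Fitted log2 fold change of FGR over WT for tested genes of the ligand, receptor and other peptide lists, 1 point a gene, with a black bar at the median of each list and Oxt drawn at its bound. The 2 calls higher in FGR in the plot are Sst and Rln3 in the ligand row, and the points farthest to the left are other precursor genes.

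The labelled tissue was present in all libraries. The list of 18 midbrain transcription factor genes, all tested and none at 0, summed to 622.9 and 543.1 CPM in FGR and 419.2 CPM in WT, with 8 called higher and 1 called lower in FGR. GABA neuron genes (Gad1, Gad2 and Slc32a1) summed to 322.2 and 291.6 CPM in FGR and 308.9 CPM in WT, of which Slc32a1 fell and none was at 0. Glutamate neuron genes summed to 319.0 and 296.2 CPM in FGR and 334.5 CPM in WT, of which Slc17a8 rose. Meningeal fibroblast genes summed to 287.1 and 475.2 CPM in FGR and 749.2 CPM in WT, with both FGR libraries below WT for all 8 genes, 7 of them called lower, and none at 0. Pituitary genes summed to 2.38 and 3.17 CPM in FGR and 3.75 CPM in WT, with Cga and Tbx19, both at 0 in FGR, the 2 called of 4 tested. Their part in the peptide gene values was not tested, and with 1 WT library a difference in dissection cannot be told apart from the group.

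**Figure D5:**
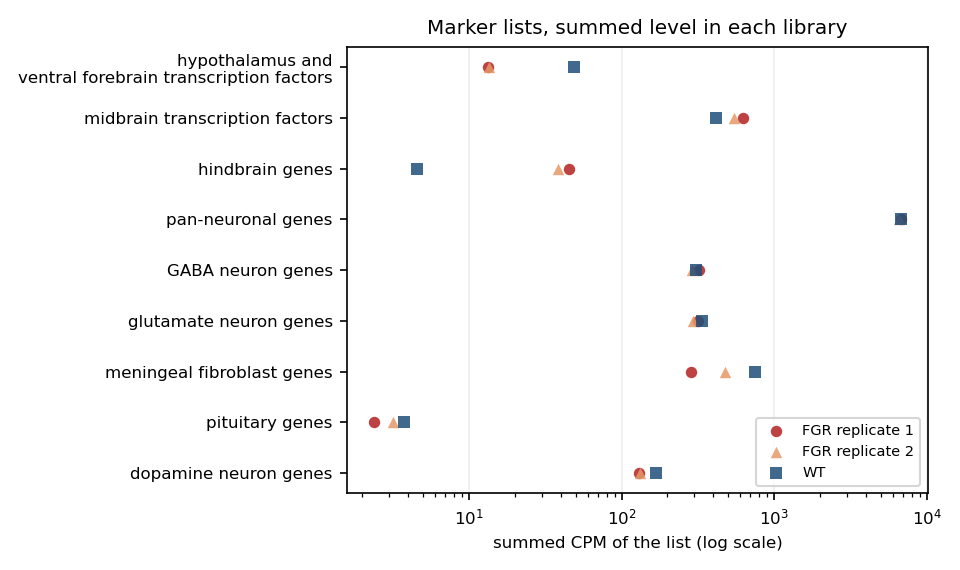
Summed level of each marker list in each library, in CPM on a log axis. The FGR libraries lie left of WT for the hypothalamus and ventral forebrain list (13.2 and 13.5 against 48.9 CPM) and right of it for the hindbrain list (45.0 and 38.2 against 4.57 CPM), while the pan-neuronal and GABA neuron lists overlap.

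The calls of the members depended on the test used. DESeq2 gave an adjusted p for 35 of the 46 tested members and called 0 of them, and 8 of the 46 had an unadjusted p under 0.05. Its adjusted p was 0.0620 for Sst, 0.245 for Nts, 0.235 for Oprd1, 0.153 for Ntsr1 and 0.449 for Npy1r, and Rln3 was among those given none (unadjusted p = 0.00152). The call of Npy1r was also lost with limma-voom (adjusted p = 0.0559), and those of Npy1r and Nts in edgeR under a stricter filter on counts (adjusted p = 0.0745 and 0.0724).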

How the data were processed

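Midbrain RNA of 2 FGR libraries and 1 WT library was analysed. The deposited tables give a raw read count and an RPKM value per gene. The authors' RPKM values equalled count divided by length and library total to within 0.0005 percent. Per the submitters' processing notes the tools included the aligner HISAT2. Not given in the sources used here are its version, the build, the counter and whether strand was used. Deposited lengths equalled exon lengths in GENCODE M21 for all 43749 of 49585 identifiers with the same version, so M21 served to look for shared exons. For some members the M21 exons had another length, so the overlap there rests on a different gene model. Among them were Sst (721 bases in M21, 599 deposited), Nts (1248 and 1176), Adcyap1 (3777 and 2088) and Ntsr2 (3120 and 1547). Kiss1 was not found in M21 and was not checked.

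The test of counts was that of edgeR 4.0.16 under R 4.3.3 (filterByExpr with a minimum count of 10, TMM scaling, two-sided quasi-likelihood F test, Benjamini-Hochberg adjustment over 25561 genes, threshold 0.05). Each SE was taken as |log2 fold change| over √F. DESeq2 1.42.0, limma-voom (limma 3.58.1), a robust fit, other scalings, other filters and removal of each FGR library were tried. Nothing says that libraries came from separate animals, so p-values reflect library spread alone, which may be technical. The fit was tested on simulated data. The members, lists and rules were chosen with earlier results of these data known. All members are reported. Of other peptide lists, called genes (up to 6 by p-value) and the 2 most abundant per length were named. Of marker lists, up to 3 genes by p-value and those at 0 were named. The dopamine neuron list, and other marker genes named, were chosen after values were seen. Intervals and floors cover counting error only.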

Additional observations from a re-analysis of the deposited data

How the results depend on the processing

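Over all genes, 1087 were called, against 2057 without a filter on low counts, 613 with a minimum count of 50 and 357 in DESeq2. The share of calls that were higher in FGR was 39.0%, and 24.4% under scaling by library totals. Called ligand genes numbered 5 without a filter and 0 in DESeq2. Called receptor genes numbered 5 with scaling by totals (Hcrtr1 and Oxtr were added), 7 without a filter and 0 in DESeq2. Of genes in the other peptide lists, edgeR called 17 and DESeq2 7. The ligand median was -0.26 with scaling by totals, -0.25 without a filter and -0.19 with a minimum count of 50. Without 1 FGR library, which leaves values with no test, it ran from -0.20 to -0.19 and the receptor median from -0.41 to -0.26, both negative. With scaling by totals the log2 fold changes of Pnoc (-0.013) and Hcrtr2 (-0.011), which were not called, turned negative. Scaling by totals leaves out the TMM factors (0.993 and 0.989 in FGR, 1.0185 in WT), which lowers every log2 fold change by nearly the same amount. The cause of the other shifts was not tested. Counts of calls could not be fitted with an FGR library left out. No paired analysis was possible because WT had 1 library. For Tac2, Kiss1, Nmu and Ucn, low counts limit what can be seen.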

Other observations

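Among peptide-degrading enzyme genes and further receptor genes, the calls were of genes also known outside neurons. Of 13 degrading enzyme genes, all tested, 2 fell and 0 rose, and the median log2 fold change was -0.07. That is 15.4% called, against 4.25% of all tested genes. Enpep, an aminopeptidase gene of pericytes, was at 0.828 and 0.919 CPM in FGR and 2.92 CPM in WT (edgeR adjusted p = 0.00193), and the aminopeptidase N gene Anpep at 0.603 and 0.853 CPM in FGR and 1.76 CPM in WT (edgeR adjusted p = 0.0384). The most abundant per length, Nln, which cleaves neurotensin, had an RPKM of 24.9 and 24.0 in FGR and 24.4 in WT, followed by Npepps at 11.7 and 10.1 in FGR and 12.4 in WT. Of 36 other peptide receptor genes 32 were tested, 2 fell and 0 rose (6.25% called), with a median of -0.29. Gpr37l1, a receptor gene of astrocytes, was at 13.1 and 12.3 CPM in FGR and 21.05 CPM in WT (edgeR adjusted p = 0.00496), and the endothelial apelin receptor gene Aplnr at 11.8 and 13.8 CPM in FGR and 18.3 CPM in WT (edgeR adjusted p = 0.0468). The endothelin receptor gene Ednrb led the list per length, at an RPKM of 44.6 and 49.1 in FGR and 52.7 in WT.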
